A study of Mus musculus with 12 samples.

Results

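Bone marrow-derived mesenchymal stem cells of the mouse that had received CK666 alone were compared with cells of the same kind that had received cytochalasin D alone (CytoD). Both compounds act on actin filaments, at different points, and the comparison asked which genes told inhibition of branching from disruption of the filaments. The libraries were those the labels name for each compound on its own, 3 for CK666 and 3 for CytoD, 6 of the 12 libraries in the series. Cells in every group were grown in serum medium, plated a day before treatment and harvested after 24 h with or without compound. The untreated group (Ctrl, 3 libraries) is given beside the values, and another group of 3 libraries received both compounds. The sources used here give neither the concentrations nor the number of animals or the passage of the cells. The labels do not say whether libraries of a group came from separate cultures, so a p-value here speaks of the spread among libraries alone, and that spread may be technical.

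Actin filaments grow from monomers in different ways. The Arp2/3 complex starts a new filament as a branch on the side of an existing one, and CK666 is a small molecule that binds the complex and holds it inactive. Formins start and extend unbranched filaments and do not need the complex. Cytochalasin D, a fungal compound, caps the growing end of filaments of every kind and also binds monomers. Marrow stromal cells are precursors of osteoblasts, adipocytes and chondrocytes, and actin tension is known to bear on that choice through the SRF cofactors of the MRTF family, which bind monomeric actin, and through YAP and TAZ.

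Levels are TMM-scaled CPM, counts relative to the depth of the library, and are given in the order of replicates 1, 2 and 3. Differences are log2 values of CK666 minus CytoD with their standard error (SE), so a positive value is a higher level with CK666. A gene was called when its adjusted p was under 0.05 in edgeR's quasi-likelihood test, adjusted by Benjamini and Hochberg over the 13534 genes tested. Total counts ran from 48930210 to 62586162 in the 6 libraries, and a count of 0 allows up to 0.0613 CPM in the shallowest one (3 counts, counting error only). All deposited counts were even, and if each fragment was counted 2 times, this bound is too low. Gene positions are those of the deposited table, which fell on the same genes in mouse build GRCm38 for 99.4% of 20970 rows matched by name. The spans of Plin4, Lipe, Srebf1, Runx2, Phospho1, Col10a1, Lgr5, Bmp4, Gli1, Arpc4, Fhod3, Tagln, Mylk, Itga1, Itga8, Itgad, Nid2, Igf2, Tuba4a and Cdc20 overlap another gene, and whether the counting used strand is not given in the sources used here, so reads of the partner could be among their counts.

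CK666 replicate 3 stood apart from its group. Its median absolute log2 difference was 0.289 from replicate 1 and 0.276 from replicate 2, against 0.126 between those, and no more than 0.108 between CytoD libraries. Long genes were lower in it than in the other CK666 libraries (Pearson r = 0.377 and 0.465 between the log2 difference of replicates 1 and 2 from it and log2 gene length, across 13534 genes that share the libraries). When genes were cut into 4 equal groups by length, the median log2 difference was 0.20 in the shortest and -0.15 in the longest. Without this library these medians were 0.07 and -0.06. Of the shortest group 33.5% were called higher with CK666 and 8.09% with CytoD, and of the longest 10.8% and 25.9%. The rates over all genes, given below beside the lists, therefore differ with gene length. The part of gene length in single results was not tested beyond the fits given here. Of 14 macrophage markers, Emr1, Ptprc, Fcgr1 and Tyrobp were at 0 in all 12 libraries, and the summed level of the list was 7.88 to 10.5 CPM with CK666 and 12.9 to 14 CPM with CytoD. Of 12 endothelial markers, Emcn, Erg, Cldn5 and Robo4 were at 0 in all 12 libraries, and of 12 skeletal muscle markers Myod1, Myf5, Myf6 and Myh1. The endothelial list summed to 5.18 to 6.73 CPM with CK666 and 5.63 to 6.21 CPM with CytoD. The skeletal muscle list summed to 51.5 to 70.0 CPM with CK666 and 80.4 to 88.5 CPM with CytoD, most of it Des. The part of these markers in the results was not tested. Of the 14 stromal markers, Cxcl12, Kitl, Pdgfra, Pdgfrb and Vcam1 were abundant, while Thy1 was at or under 0.0788 CPM and Nt5e at or under 0.58 CPM in every library of the 2 compounds. Cspg4, Lepr and Eng were low there too, reaching 0.436, 1.01 and 2.42 CPM. The remaining markers Foxc1, Cd44, Ly6a and Nes were at 6.4 CPM or more in these libraries. In bulk RNA, fewer cells of a type and less RNA per cell cannot be told apart.

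Many genes differed between the compounds. Of the 13534 genes, 5388 were called (39.8%), 3101 higher with CK666 (22.9%) and 2287 higher with CytoD (16.9%). Larger differences lay more often on the CytoD side: 271 genes were called and at least 2-fold higher with CK666 (2.0%), and 642 with CytoD (4.74%). At 4-fold or more the counts were 54 and 182. The 3 libraries of one compound were all above the 3 of the other for 6735 genes (49.8%). Without CK666 replicate 3 the counts called were 2689 and 2495, and 4440 genes were called in both fits in the same direction and 0 in opposite directions. Of the 913 genes called at 2-fold, 817 stayed called without that library.

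**Figure D1:**
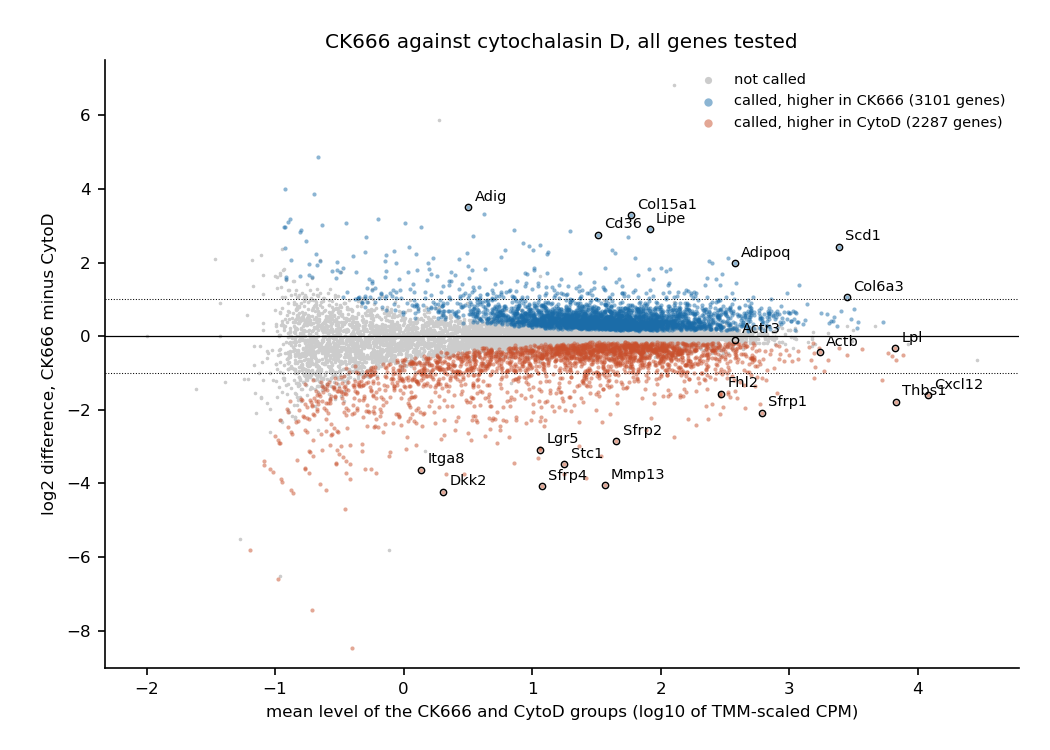
Each point is a gene, with the mean level of the CK666 and CytoD groups on the horizontal axis (log10 CPM, levels under 0.01 drawn at 0.01) and the log2 difference, CK666 minus CytoD, on the vertical axis. Blue points were called higher with CK666 (3101 genes) and red points higher with CytoD (2287 genes), dotted lines mark 2-fold, and fat genes such as Lipe and Scd1 lie above them while Mmp13 and Sfrp4 lie below; Accn1, which was not called, lies under the range drawn.

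**Figure D2:**
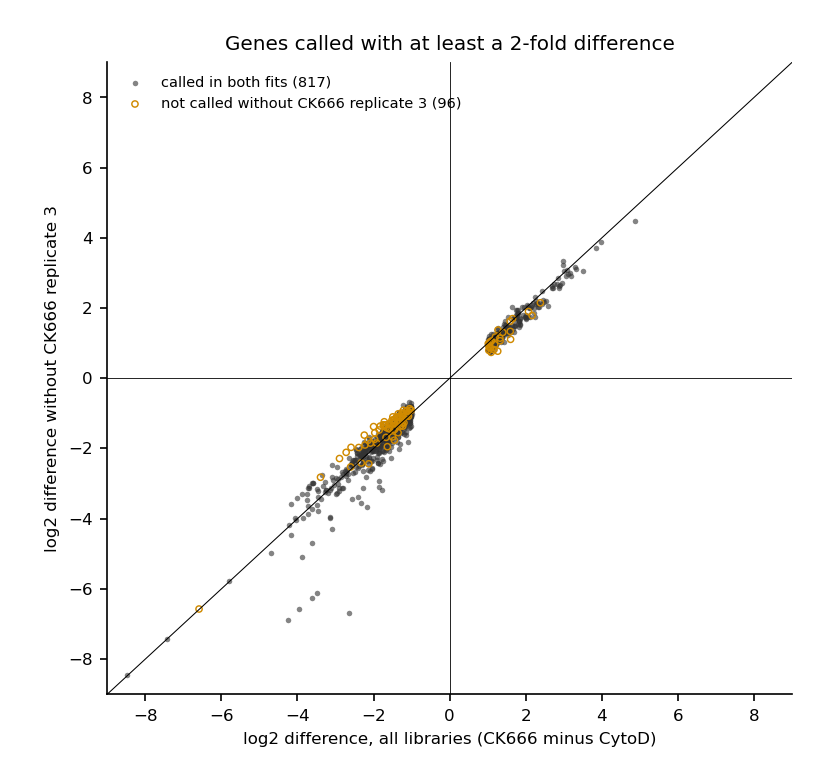
Log2 differences of the 913 genes called with at least a 2-fold difference, with all libraries (horizontal) and without CK666 replicate 3 (vertical); the line marks equal values. Filled points are the 817 genes called in both fits, open points those not called without that library, and no point lies on the other side of 0 in the second fit.

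Genes of fat cells were mostly higher with CK666. Fat cells store triglyceride in droplets coated by perilipins, take up fatty acids, and release them again by lipolysis. Of 13 lipid droplet genes listed, 11 passed the filter on low counts, and 8 were called higher with CK666 and 0 higher with CytoD (median log2 difference 0.90, beside 0.02 over all genes and background rates of 22.9% and 16.9%). Of 13 tested genes of fatty acid uptake and lipolysis 9 and 1 were called (median 0.83), of 18 genes of fatty acid and triglyceride synthesis 13 and 1 (median 0.91), and of 10 adipokines and other secreted fat cell proteins 6 and 1 (median 1.11). The first number of each pair is higher with CK666 throughout.

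Plin1, the perilipin that coats the droplets of mature fat cells (chromosome 7, 79721164 to 79732776), was at 315, 502 and 554 CPM with CK666 and 139.6, 139.8 and 144 CPM with CytoD. All 3 CK666 libraries lay above the CytoD libraries, with replicate 1 the lowest of them, and the difference was log2 1.69, SE 0.18 (adjusted p = 1.5e-05). Ctrl libraries were at 6.09 to 7.61 CPM, below every library of both compounds. Cidec, which fuses small droplets into large ones, was at 14.3, 25.8 and 25.8 CPM with CK666 and 4.36, 4.76 and 4.30 CPM with CytoD (log2 2.30). G0s2, an inhibitor of triglyceride lipase, stood 2.92-fold higher with CK666 and Plin4, another perilipin, 2.24-fold. For Plin4 the CytoD libraries (588, 611 and 593 CPM) were close to Ctrl (522 to 539 CPM), while the CK666 libraries were at 1248, 1412 and 1365 CPM.

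Cd36, a fatty acid transporter, was at 43.6, 67.0 and 60.2 CPM with CK666 against 8.55, 8.02 and 8.74 CPM with CytoD and 0.423 to 0.564 CPM in Ctrl (log2 2.75, SE 0.18, adjusted p = 4.3e-07). The lipases that break down stored fat in turn were all higher with CK666: Pnpla2, which acts first, 3.01-fold, Lipe, hormone-sensitive lipase, 7.51-fold, and Mgll, which takes off the last fatty acid, 9.99-fold. Lipe levels were 90.5, 159.7 and 185 CPM with CK666 and 19.5, 19.8 and 18.6 CPM with CytoD, and Mgll levels 4.85, 8.90 and 9.51 CPM and 0.411, 0.805 and 1.08 CPM. The fatty acid carriers Fabp4 and Fabp5 were 4.15-fold and 4.0-fold higher, at 285, 349 and 509 CPM against 91.2, 89.7 and 94.7 CPM for Fabp4. Lpl, lipoprotein lipase, went the other way, at 5472, 5685 and 6501 CPM with CK666 and 7235, 7435 and 7567 CPM with CytoD (log2 -0.33, SE 0.11, adjusted p = 0.024). The call of Lpl was lost without CK666 replicate 1 or 2 or CytoD replicate 2 or 3, with offsets for gene length, and with a replicate block in the 6 libraries alone (adjusted p = 0.055 to 0.074).

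Scd1, the desaturase that makes monounsaturated fatty acids, was at 3896, 4863 and 3572 CPM with CK666 and 874, 709 and 707 CPM with CytoD (log2 2.43, SE 0.14, adjusted p = 1.1e-07). The Ctrl libraries, at 620.2 to 772 CPM, were close to the CytoD libraries. Gpd1, which makes the glycerol backbone, was 5.56-fold higher with CK666, and the acyltransferases of triglyceride assembly Agpat9, Agpat2 and Dgat2 were 6.50-, 3.60- and 3.26-fold higher. Fasn, fatty acid synthase, was at 288, 441 and 374 CPM with CK666, 207, 181 and 176 CPM with CytoD and 279.5 to 281 CPM in Ctrl, so that Ctrl lay between the groups. Srebf1, the transcription factor of this pathway, showed the same order, at 191, 245 and 253 CPM, 109, 95.5 and 91.0 CPM and 119 to 125 CPM (log2 1.22, SE 0.10).

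Among secreted proteins, Adipoq, which encodes adiponectin (chromosome 16, 23146536 to 23157968), was at 445, 601 and 765 CPM with CK666, 146, 154 and 158 CPM with CytoD and 15.4 to 17.7 CPM in Ctrl (log2 1.98, SE 0.17, adjusted p = 3.3e-06). Cfd (adipsin) and Retn (resistin) were 3.61-fold and 3.50-fold higher with CK666, and Angptl4, an inhibitor of lipoprotein lipase, 2.64-fold. Apoe, a lipid carrier, was at 13.4, 15.6 and 24.8 CPM with CK666 and 8.51, 7.78 and 7.47 CPM with CytoD. Rbp4, the retinol carrier, was the member called higher with CytoD, at 5.0, 4.56 and 6.70 CPM with CK666 and 7.98, 9.90 and 9.78 CPM with CytoD (adjusted p = 0.016; 0.053 to 0.061 without CK666 replicate 2, CytoD replicate 2 or CytoD replicate 3). Adig, a small protein of fat cells, had the largest difference on the CK666 side among the genes named here, at 2.72, 6.19 and 8.70 CPM against 0.740, 0.336 and 0.505 CPM (log2 3.50, SE 0.45).

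The transcription factors that set up the fat cell programme differed much less than these genes. Of 15 tested, 6 were called higher with CK666 and 2 with CytoD (median 0.15). Pparg, the receptor at the head of the programme (chromosome 6, 115361221 to 115490401), was at 239, 248 and 282 CPM with CK666, 207, 207 and 203 CPM with CytoD and 131 to 144 CPM in Ctrl (log2 0.32, SE 0.08, adjusted p = 0.0053; 0.051 in a fit of the 6 libraries alone). Cebpa, its partner, was at 853, 957 and 1086 CPM and 765, 804 and 724 CPM (log2 0.34, adjusted p = 0.012; 0.058 without CytoD replicate 3 and 0.074 in a fit of the 6 libraries alone). Stat5a was 1.52-fold higher with CK666, at 40.7, 43.2 and 41.7 CPM against 27.8, 28 and 27.0 CPM. Klf15 was 1.65-fold higher with CytoD at levels under 3 CPM, and Ebf1 1.20-fold (adjusted p = 0.033; 0.072 to 0.093 when any CytoD library was left out and in a fit of the 6 libraries alone). Of 14 tested genes of fatty acid oxidation and brown fat, 9 and 1 were called (median 0.51), among them Ppargc1b, a coactivator of mitochondrial genes, at 14.3, 22.1 and 12 CPM with CK666 against 3.86, 4.56 and 5.42 CPM, and Cpt1a, which brings fatty acids into mitochondria, 1.67-fold higher. Pdk4, which slows glucose oxidation, was 1.38-fold higher with CytoD.

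**Figure D3:**
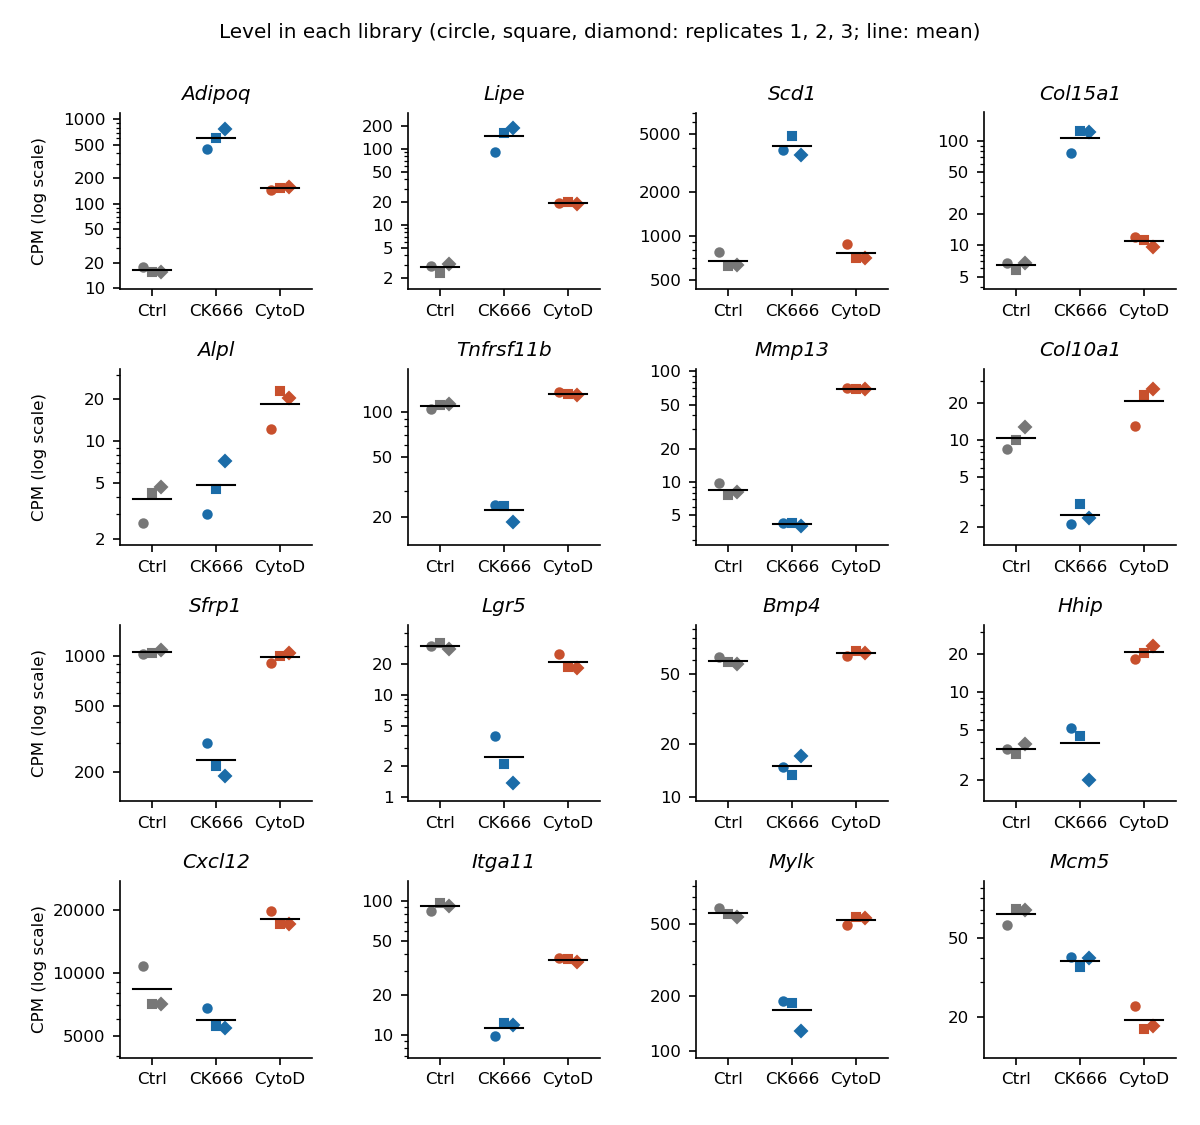
Level of 16 genes in each library of Ctrl (grey), CK666 (blue) and CytoD (red), in CPM on a log axis that differs between panels, with the mean as a line. Adipoq, Lipe, Scd1 and Col15a1 are highest with CK666; the other genes except Mcm5 are lower in every CK666 library than in every CytoD library, and for Tnfrsf11b, Sfrp1, Bmp4 and Mylk the CytoD libraries lie near Ctrl.

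Genes of bone-forming cells lay mostly on the CytoD side. Osteoblasts are set up by the factors Runx2 and Sp7 and mineralize a collagen matrix. Of 21 osteoblast genes tested of 23 listed, 2 were called higher with CK666 and 13 with CytoD (median -0.50). Runx2 (chromosome 17, 44604001 to 44814797) was at 56.1, 57.4 and 44.4 CPM with CK666, 87.6, 91.7 and 93.4 CPM with CytoD and 63.8 to 66.9 CPM in Ctrl (log2 -0.79, SE 0.09, adjusted p = 3.6e-05), so that Ctrl lay between the compounds. Sp7 was low in every library, at 0.118, 0.348 and 0.376 CPM with CK666 and 0.987, 3.05 and 2.60 CPM with CytoD (log2 -2.95, SE 0.65, adjusted p = 0.0033). Dlx5, a factor upstream of Sp7, was at 0.473, 0.426 and 0.720 CPM and 1.32, 1.81 and 2.06 CPM.

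Alpl, the alkaline phosphatase of mineralizing cells (chromosome 4, 137741732 to 137796377), was at 2.99, 4.53 and 7.20 CPM with CK666 and 12.3, 23.0 and 20.5 CPM with CytoD (log2 -1.91, SE 0.34, adjusted p = 0.00074), and its Ctrl libraries, at 2.61 to 4.70 CPM, lay under every CytoD library. Pth1r, the receptor for parathyroid hormone, was 4.36-fold higher with CytoD at low levels (0.315, 0.503 and 0.469 CPM with CK666 against 1.27, 1.85 and 2.53 CPM). Phex, a protease of phosphate control, was 2.69-fold higher with CytoD. Tnfrsf11b, which encodes osteoprotegerin, the decoy that blocks osteoclast formation, was at 24.1, 23.9 and 18.8 CPM with CK666 and 134, 131 and 129 CPM with CytoD (log2 -2.56, SE 0.13, adjusted p = 4e-08). Here the CytoD libraries were near Ctrl (104 to 113 CPM) and the CK666 libraries below both. Col1a1, the main bone collagen, was 1.42-fold higher with CytoD, with both compounds under Ctrl (2103, 2442 and 2472 CPM, 3170.1, 3472 and 3293 CPM and 5248 to 5941 CPM).

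Called on the other side were 2 genes of the list: Phospho1, a phosphatase of matrix vesicles (2.15-fold higher with CK666), and Dlx3 (2.24-fold). Spp1, osteopontin, was at 8643, 6948 and 7492 CPM with CK666 and 9795, 8521 and 8677 CPM with CytoD, and the groups overlapped (adjusted p = 0.34). Late genes were near the limit of detection: Dmp1 was at 0, 0.0387 and 0 CPM with CK666 and 0.123, 0.168 and 0.469 CPM with CytoD, and Bglap, osteocalcin, at 0.276, 0.348 and 0.344 CPM and 0.0822, 0.168 and 0.217 CPM (adjusted p = 0.15 for Bglap). Of 10 tested cartilage genes 0 and 4 were called (40%, near the 39.8% of all genes, median -0.57). Col10a1, the collagen of hypertrophic cartilage, was at 2.09, 3.06 and 2.35 CPM with CK666, 12.9, 23.3 and 25.6 CPM with CytoD and 8.43 to 12.6 CPM in Ctrl (log2 -3.05, SE 0.27), while Sox9, the factor that starts cartilage, was 1.33-fold higher with CytoD.

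Signalling genes that act on bone and fat precursors showed some of the largest differences. Wnt and BMP ligands both favour bone formation, and each pathway has secreted antagonists. Of 19 tested Wnt antagonists and targets 1 and 11 were called (median -0.94), and of 20 tested BMP ligands, antagonists and targets 0 and 15 (median -0.96). The secreted Frizzled-related proteins Sfrp1, Sfrp2 and Sfrp4, which bind Wnt ligands, were lower with CK666: Sfrp4 (chromosome 13, 19623175 to 19632823) was at 1.93, 0.967 and 1.13 CPM against 22.7, 23.2 and 21.6 CPM (log2 -4.08, SE 0.22, adjusted p = 6.5e-08), Sfrp2 at 13.8, 9.48 and 9.83 CPM against 83.5, 81.0 and 73.9 CPM, and Sfrp1 at 299, 217 and 188 CPM against 907, 1009 and 1050.0 CPM. Ctrl libraries, at 15.2 to 23.0 CPM, 55.8 to 64.3 CPM and 1039 to 1094 CPM, were nearer to CytoD than to CK666 for all 3. Per length, in the deposited RPKM values, Sfrp1 was more abundant than Sfrp4, with means of 48.5 RPKM with CK666 and 198 RPKM with CytoD, against 0.688 and 11.2 RPKM for Sfrp4. Dkk2, which blocks the Wnt coreceptor, was at 0.158, 0.271 and 0.188 CPM with CK666, 2.63, 4.26 and 4.66 CPM with CytoD and 0.570 to 0.751 CPM in Ctrl, so that the compounds lay on either side of Ctrl.

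Lgr5, the R-spondin receptor and a Wnt target, was at 3.98, 2.09 and 1.38 CPM with CK666, 25.3, 18.6 and 18.4 CPM with CytoD and 28.1 to 31.8 CPM in Ctrl (log2 -3.08, SE 0.37). Nkd1, a feedback inhibitor, was 3.48-fold and Lef1, a nuclear factor of the pathway, 1.89-fold higher with CytoD. Axin2, a widely used target, was at 2.32, 2.82 and 2.13 CPM and 2.59, 3.25 and 3.14 CPM, and the groups overlapped (adjusted p = 0.29). Apcdd1, a membrane inhibitor of Wnt and BMP signals, was the member called higher with CK666, at 43.6, 90.9 and 84.4 CPM against 13.6, 15.2 and 16.8 CPM and 1.26 to 1.80 CPM in Ctrl.

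Bmp4 was at 14.8, 13.2 and 17.0 CPM with CK666, 63.6, 67.6 and 65.7 CPM with CytoD and 56.8 to 62.7 CPM in Ctrl (log2 -2.13, SE 0.10, adjusted p = 1.9e-08), and Bmp2 at 1.26, 0.851 and 0.751 CPM and 4.40, 2.58 and 2.49 CPM. Bmp5 was 4.27-fold higher with CytoD. The antagonists lay on the same side: Fst, follistatin, was 3.82-fold and Grem1 4.36-fold higher with CytoD, the latter at levels under 2 CPM. Of the targets, Id4 was at 1.46, 2.21 and 2.91 CPM with CK666 and 4.73, 8.52 and 7.44 CPM with CytoD, and Atoh8 at 25.2, 21.8 and 25.9 CPM and 56.1, 54.1 and 56.6 CPM. In the Hedgehog pathway Hhip, which traps the ligand, was 5.39-fold higher with CytoD (5.2, 4.49 and 1.97 CPM against 18.5, 20.4 and 23.5 CPM), whereas Gli1, a target of the pathway, was 4.09-fold higher with CK666 at low levels (1.14, 1.32 and 1.00 CPM against 0.247, 0.369 and 0.217 CPM). Of 15 tested Notch and Hedgehog genes 2 and 5 were called (46.7%, beside 39.8% of all genes, median -0.24). Of 19 TGF-beta ligands, receptors and targets 1 and 7 were called (42.1%, near the share of all genes, median -0.20). Inhba, an activin subunit, was 2.01-fold and Tgfb3 1.70-fold higher with CytoD.

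**Figure D4:**
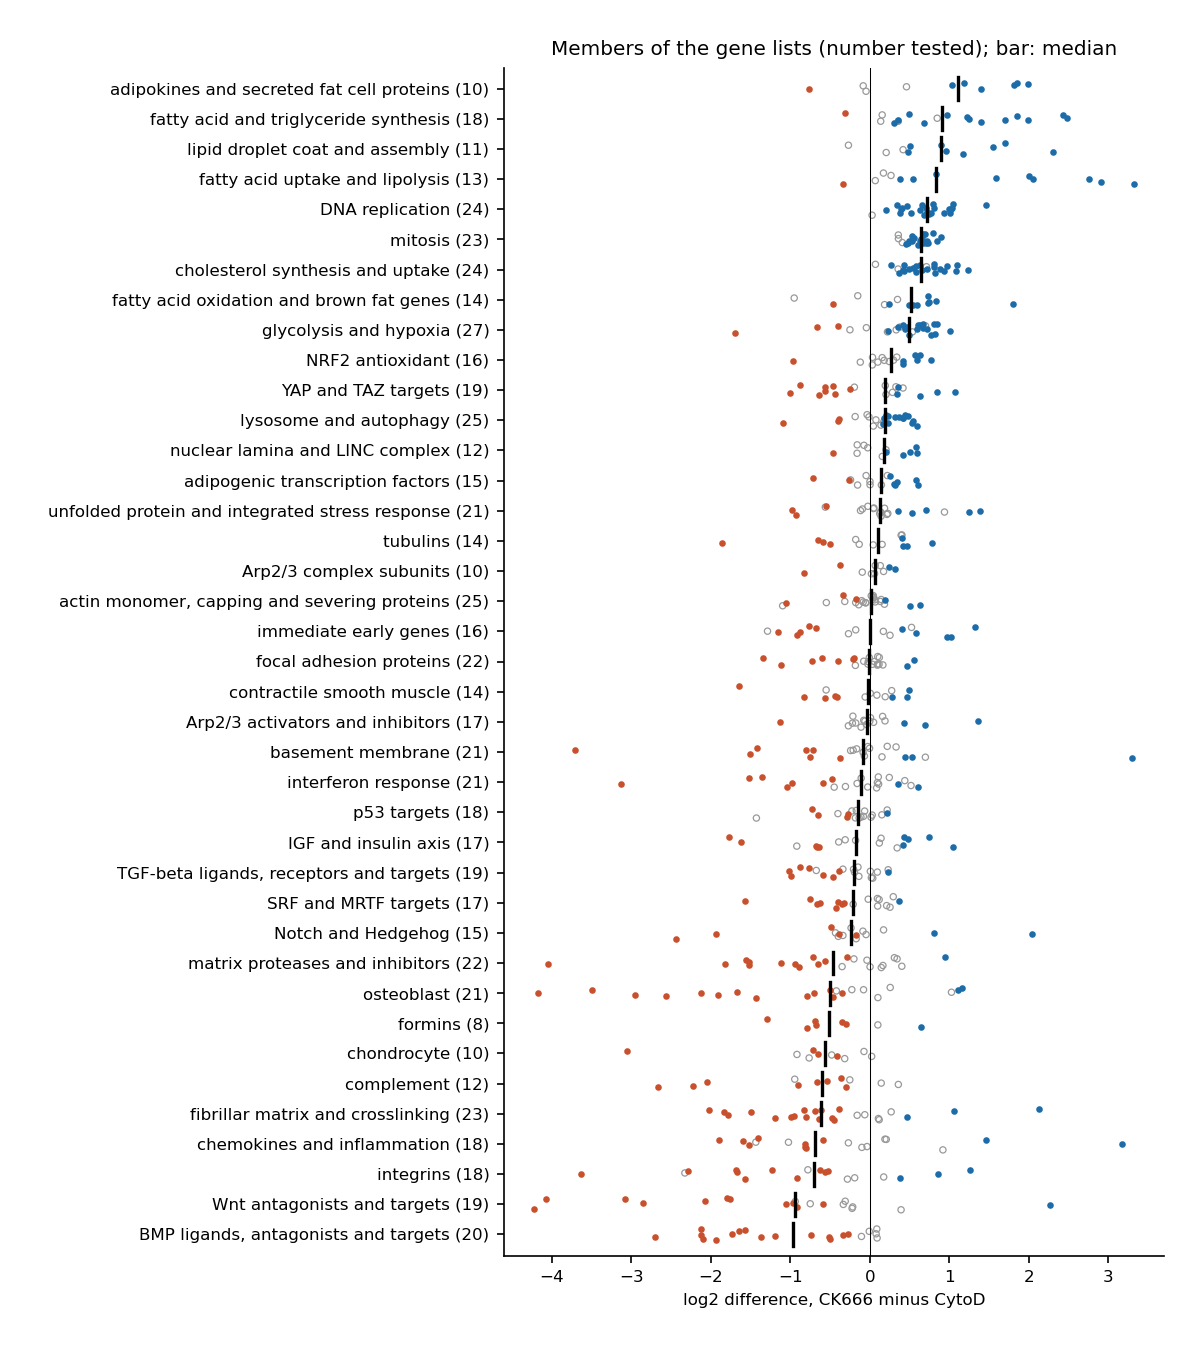
Log2 difference, CK666 minus CytoD, of each tested member of 39 gene lists, ordered by the list's median (black bar), with the number of members tested in parentheses. Blue points were called higher with CK666, red points higher with CytoD, and open points were not called; the lists of secreted fat cell proteins, fat synthesis, lipid droplets and fatty acid uptake have the highest medians and the Wnt and BMP lists the lowest.

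The genes of the Arp2/3 complex itself, the target of CK666, differed less than most of the lists above. It has subunits of the actin-related proteins Actr2 and Actr3 and of the Arpc series. Of 10 subunit genes tested 2 were called higher with CK666 and 2 with CytoD (40%, beside 39.8% of all genes), and the median difference was 0.06. Without CK666 replicate 3, 1 and 1 were called and the median was -0.06. Actr2 was at 253, 233 and 201 CPM with CK666 and 306, 284 and 300.1 CPM with CytoD (log2 -0.37, SE 0.09, adjusted p = 0.0039) and stayed called without CK666 replicate 3 (adjusted p = 0.00076). Actr3 was at 417, 365 and 324 CPM and 404, 381 and 396 CPM, both under Ctrl (590.0 to 631 CPM), and the groups overlapped (adjusted p = 0.46). Arpc5l was 1.24-fold higher with CK666 (adjusted p = 0.015; 0.11 in a fit of the 6 libraries alone). The calls of Arpc1a (log2 0.25, adjusted p = 0.043) and of Actr3b (log2 -0.83, adjusted p = 0.041) were lost without CK666 replicate 3 (adjusted p = 0.21 and 0.1) and in several other alternatives.

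The other subunits were not called: log2 0.17 for Arpc1b, 0.02 for Arpc2, 0.06 for Arpc3, 0.13 for Arpc4 and 0.07 for Arpc5 (SE 0.08 to 0.11). For Arpc2, Arpc3, Arpc4 and Arpc5 the sign turned without CK666 replicate 3, to between -0.09 and -0.03. Per length, Arpc1b and Arpc2 were the most abundant subunits with either compound (328 and 236 RPKM with CK666, 282 and 226 RPKM with CytoD), and Actr3b the least (1.29 and 2.22 RPKM).

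Among the proteins that switch the complex on or off, 3 and 1 of 17 tested genes were called (23.5%, under the 39.8% of all genes, median -0.04). Wasf1, a WAVE protein that activates the complex, was at 31.7, 36.2 and 32.2 CPM with CK666, 13.2, 12.9 and 12.7 CPM with CytoD and 9.51 to 12.4 CPM in Ctrl (log2 1.37, SE 0.09, adjusted p = 5.1e-07). Coro1b, a coronin that removes branches, was 1.61-fold higher with CK666. Formins lay mostly on the other side, with 1 and 6 of 8 tested genes called (87.5%, beside 39.8% of all genes, median -0.51). The counts were 1 and 5 with offsets for gene length, and the median was -0.29. Daam2 was at 32.7, 29.7 and 25.6 CPM with CK666, 70.5, 72.8 and 71.2 CPM with CytoD and 39.6 to 42.9 CPM in Ctrl (log2 -1.29, SE 0.10), Fhod1 was 1.73-fold higher with CytoD, and Fhod3 1.56-fold higher with CK666. Of 25 tested genes for actin monomer, capping and severing proteins 3 and 3 were called (24%, median 0.02), and Tmsb4x, the monomer-binding thymosin, was at 316, 269.9 and 401 CPM with CK666 and 684, 667 and 699 CPM with CytoD (log2 -1.06, SE 0.12).

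The promoters of SRF targets are shown here because called and uncalled members share a sequence. SRF binds the CArG box, CC and GG around 6 bases of A or T. Of 17 SRF and MRTF targets 13 had a promoter in the RefSeq table of build GRCm38.p6 (250 bases before to 50 after the start), and 8 of these 13 held a CArG box on either strand, against 1.63% of all 32851 promoters and 1.81% of genes with any promoter in the table. Bases upstream of the start are printed 5′ to 3′ on the strand of the gene, with the box in capitals. A match is a description of the letters, not a bound site. Boxes with another base in the core, or outside this range, were not searched, so a miss does not show that a gene lacks one.
Fhl2: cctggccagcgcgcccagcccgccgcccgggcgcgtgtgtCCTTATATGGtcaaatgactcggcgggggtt
Cnn2: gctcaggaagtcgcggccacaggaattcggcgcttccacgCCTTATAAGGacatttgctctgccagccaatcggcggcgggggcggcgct
Actg1: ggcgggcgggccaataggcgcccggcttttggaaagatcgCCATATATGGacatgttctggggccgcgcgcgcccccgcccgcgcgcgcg
Srf: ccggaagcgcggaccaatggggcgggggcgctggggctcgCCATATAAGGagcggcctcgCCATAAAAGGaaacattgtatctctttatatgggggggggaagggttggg
Vcl: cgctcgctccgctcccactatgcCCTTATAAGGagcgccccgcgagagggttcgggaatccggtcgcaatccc
The windows are chr1:43163962-43164032 on the minus strand for Fhl2, chr10:79988504-79988593 on the plus strand for Cnn2, chr11:120348536-120348625 on the minus strand for Actg1, chr17:46556175-46556284 on the minus strand for Srf and chr14:20929148-20929220 on the plus strand for Vcl. Fhl2 has 2 promoters in the table, both with a box, and the one at the start of the counted span is printed. The box starts 31, 56, 90 and 227 bases before the start in Fhl2, Cnn2, Actg1 and Vcl, and Srf holds a pair, 82 and 62 bases before it.

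Of the 17 SRF and MRTF targets 1 was called higher with CK666 and 8 with CytoD (median -0.21). Without CK666 replicate 3, 2 and 8 were called (median -0.20). With offsets for gene length 3 and 8 were called and the median was 0.02. Fhl2, a LIM protein (chromosome 1, 43123074 to 43163961), was at 165, 132 and 153 CPM with CK666, 464, 423 and 443 CPM with CytoD and 432 to 482 CPM in Ctrl (log2 -1.56, SE 0.12, adjusted p = 1.1e-06), so the CytoD libraries were near Ctrl. Cnn2, a calponin, was at 440.1, 403 and 489 CPM and 769, 739 and 736 CPM, both under Ctrl (1111 to 1219 CPM). The cytoplasmic actins were lower with CK666 than with CytoD, and in every library of both compounds under every Ctrl library (2671 to 3066 CPM for Actb and 3895 to 4367 CPM for Actg1): Actb was at 1407, 1385 and 1638 CPM against 2047, 1834 and 2077 CPM (log2 -0.43, SE 0.09, adjusted p = 0.0022) and Actg1 at 1993, 2066 and 2410.4 CPM against 2769, 2644 and 2684 CPM (log2 -0.32, SE 0.09, adjusted p = 0.013). Reads of near-identical actin genes could be split between rows. The filament crosslinker Flna and tropomyosin Tpm4 were 1.58-fold and 1.54-fold higher with CytoD.

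Of the 8 targets with a box 3 were called, all higher with CytoD, and Srf and Vcl were among those not called. Srf itself was at 59.7, 93.1 and 92.3 CPM with CK666 and 63.1, 70.8 and 65.8 CPM with CytoD (adjusted p = 0.089; 0.00032 without CK666 replicate 1, with a log2 difference of 0.48). Vcl, vinculin, was at 736, 718 and 505 CPM and 566, 567 and 559 CPM (adjusted p = 0.21; log2 0.33, adjusted p = 0.0049 without CK666 replicate 3). Tagln2 held no box of that form in the range searched. It was the target called higher with CK666 (log2 0.36, adjusted p = 0.024), a call lost without CK666 replicate 3 (adjusted p = 0.12).

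Contractile genes were split, with 3 and 5 of 14 called (57.1%, beside 39.8% of all genes, median -0.03). In the range searched, 1 of the 11 with a promoter in the table, Myl9, held a CArG box of that exact form. Acta2, smooth muscle actin (chromosome 19, 34241091 to 34255336), was at 595, 669.6 and 837 CPM with CK666, 475, 502 and 515 CPM with CytoD and 2999 to 3122 CPM in Ctrl (log2 0.49, SE 0.12, adjusted p = 0.0048). Tagln, transgelin, was 1.39-fold higher with CK666 (adjusted p = 0.018; 0.071 without CK666 replicate 3 and 0.092 in a fit of the 6 libraries alone). Mylk, the kinase that switches on smooth muscle myosin, went the other way, at 189.5, 183 and 130.0 CPM with CK666 against 493, 543 and 537 CPM with CytoD and 546 to 609 CPM in Ctrl (log2 -1.65, SE 0.12).

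YAP and TAZ targets were split as well, 5 and 8 of 19 called (68.4%, beside 39.8% of all genes, median 0.19, and -0.03 without CK666 replicate 3). Ctgf, a secreted matrix protein (chromosome 10, 24595442 to 24598682), was at 171, 323 and 312 CPM with CK666, 144, 155 and 149 CPM with CytoD and 1147 to 1338 CPM in Ctrl (log2 0.85, SE 0.18, adjusted p = 0.0028), and CK666 replicate 1 lay nearest to the CytoD libraries. Cyr61, the nearest relative of Ctgf on the list, was at 209, 428 and 454 CPM and 234, 381 and 339 CPM, with overlap (adjusted p = 0.56). Lats2, the kinase that inhibits YAP, was 1.83-fold and Gadd45b 2.0-fold higher with CytoD. The hexamer GGAATG, the core of the TEAD site, was found on either strand in 5 of 13 of these genes with a promoter. The shares were 14.7% of all promoters and 16.6% of genes. The hexamer was also found in 6 of 11 contractile genes, 3 of 13 SRF and MRTF targets and 2 of 20 mitosis genes.

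Of 16 immediate early genes 5 and 5 were called (62.5%, beside 39.8% of all genes), but 1 and 4 without CK666 replicate 3. Egr1 was at 237, 475 and 430.3 CPM with CK666 and 90.4, 285 and 206 CPM with CytoD, the groups overlapped and replicate 1 was lowest in each (adjusted p = 0.038; 0.23 without CK666 replicate 3). Dusp1, a phosphatase that ends MAP kinase signals, and Fosl2 were 2.23-fold and 1.84-fold higher with CytoD.

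**Figure D5:**
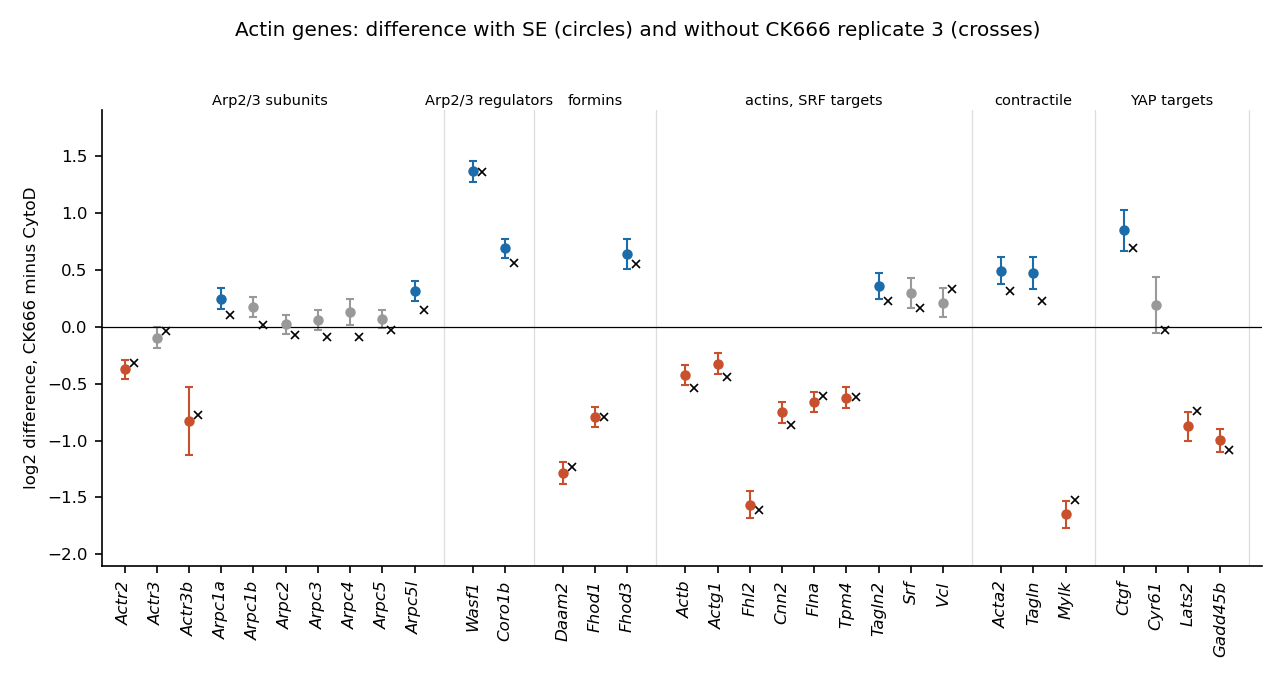
Log2 difference, CK666 minus CytoD, with its SE (circles with bars) for Arp2/3 subunits, regulators of the complex, formins, actins and SRF targets, contractile genes and YAP targets; crosses give the value without CK666 replicate 3. Blue circles were called higher with CK666, red circles higher with CytoD and grey circles were not called; among Arp2/3 subunits Actr3b and Actr2 lie lowest and Arpc5l highest, and the crosses of Arpc2, Arpc3, Arpc4, Arpc5 and Cyr61 fall on the other side of 0.

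Integrins and fibrillar matrix genes were mostly lower with CK666. Integrins pair an alpha and a beta chain to hold the cell to its matrix and tie it to actin. Of 18 tested integrin chains 3 and 10 were called (median -0.70), and 4 and 9 with offsets for gene length (median -0.65). Itgb1, the shared beta chain, was at 828, 805 and 825 CPM with CK666, 1155, 1157 and 1212 CPM with CytoD and 1568 to 1586 CPM in Ctrl (log2 -0.52, SE 0.06, adjusted p = 3.5e-05). The collagen-binding chain Itga11 was at 9.89, 12.4 and 11.8 CPM with CK666, 37.5, 36.8 and 35.2 CPM with CytoD and 84.7 to 97.4 CPM in Ctrl (log2 -1.68, SE 0.09). Itga9 and Itgb3 were 4.87-fold and 2.34-fold higher with CytoD. Itga1 was 2.98-fold higher (adjusted p = 0.0038; 0.066 without CK666 replicate 3).

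For Itga8 the compounds lay on either side of Ctrl, at 0.236, 0.155 and 0.219 CPM with CK666, 2.38, 2.75 and 2.49 CPM with CytoD and 0.381 to 1.09 CPM in Ctrl. Itga6, a laminin-binding chain, was 2.40-fold higher with CK666, and Itga5, the fibronectin-binding chain, was not called (log2 0.17, adjusted p = 0.13; 0.024 without CK666 replicate 1 and 0.030 with offsets for gene length). Itgad, an integrin chain best known from leukocytes and not on the list, was at 34.5, 37.2 and 33.0 CPM with CK666 and 5.39, 4.36 and 4.77 CPM with CytoD (log2 2.85, SE 0.12), while the leukocyte marker Ptprc was at 0 in every library. Of 22 tested focal adhesion proteins 2 and 7 were called (40.9%, near the 39.8% of all genes, median -0.01). With offsets for gene length 5 and 4 were called. Tns3 was 2.18-fold and Tln2 2.53-fold higher with CytoD.

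Of 23 tested fibrillar matrix and crosslinking genes 3 and 15 were called (median -0.61). With offsets for gene length 5 and 14 were called and the median was -0.33. Thbs1, thrombospondin, was at 2773, 4012 and 2327 CPM with CK666, 9293, 11066 and 10876 CPM with CytoD and 15685 to 18556 CPM in Ctrl (log2 -1.78, SE 0.17, adjusted p = 6.1e-06). Lox, the enzyme that crosslinks collagen, was at 4104, 3334 and 2132 CPM and 7448, 7176 and 7282 CPM, with CK666 replicate 3 lowest. Col3a1 was 3.57-fold and Fn1, fibronectin, 1.56-fold higher with CytoD. A few collagens went the other way. Col5a3 was at 75.6, 116 and 115 CPM with CK666, 18.6, 25.7 and 26.0 CPM with CytoD and 33.8 to 35.2 CPM in Ctrl, and Col6a3 at 3405, 4569 and 3369.6 CPM, 1779.7, 1827 and 1824 CPM and 2288 to 2478 CPM.

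Of 21 tested basement membrane genes 3 and 7 were called (47.6%, beside 39.8% of all genes, median -0.08). With offsets for gene length 4 and 6 were called and the median was 0.12. Col15a1 (chromosome 4, 47208012 to 47313165) was at 76.0, 124 and 122 CPM with CK666, 12, 11.2 and 9.68 CPM with CytoD and 5.75 to 6.80 CPM in Ctrl (log2 3.29, SE 0.16, adjusted p = 4e-08). Nid2, nidogen, and Lama1, a laminin chain, were 2.83-fold and 2.68-fold higher with CytoD. Mcam, an adhesion molecule of vessel-associated stromal cells, was at 5.08, 17.0 and 16.3 CPM with CK666 and 1.19, 1.91 and 2.09 CPM with CytoD, with CK666 replicate 1 well below the others.

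Of 22 tested matrix proteases and inhibitors 1 and 12 were called (median -0.46). Mmp13, a collagenase of bone and cartilage (chromosome 9, 7272514 to 7283333), was at 4.29, 4.29 and 4.04 CPM with CK666, 70.4, 68.5 and 69.5 CPM with CytoD and 7.57 to 9.81 CPM in Ctrl, a 16.5-fold difference between the compounds (log2 -4.04, SE 0.12, adjusted p = 4.3e-10). The libraries within each group were close together, and Ctrl lay between the groups. Adamts1 was 3.54-fold and Serpine2, protease nexin, 2.93-fold higher with CytoD.

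Of 13 tested stromal markers 0 were called higher with CK666 and 7 with CytoD (median -0.61), and 6 were not called. Cxcl12, the chemokine that holds blood stem cells in the marrow, was at 6805, 5601 and 5462 CPM with CK666, 19869.5, 17072 and 17214 CPM with CytoD and 7094 to 10783 CPM in Ctrl (log2 -1.60, SE 0.15, adjusted p = 6.3e-06). Kitl, stem cell factor, was at 567, 529.8 and 297 CPM with CK666, 848, 877 and 926 CPM with CytoD and 233 to 304 CPM in Ctrl, and CK666 replicate 3 was lowest of the CK666 libraries. Vcam1, which binds blood cells, was 2.87-fold higher with CytoD, Csf1, the macrophage growth factor, 1.75-fold, and the stromal receptor Pdgfra 1.80-fold. The summed level of the stromal markers was 6602 to 8561 CPM with CK666 and 19805 to 22584 CPM with CytoD, most of it Cxcl12.

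Of 18 tested chemokine and inflammation genes 2 and 8 were called (median -0.70) and of 12 complement genes 0 and 8 (median -0.61). Cxcl14 was 3.73-fold higher with CytoD, and Ccl2, which draws monocytes, was higher with CK666, at 52.5, 67.7 and 77.8 CPM against 26.5, 22.2 and 23.4 CPM with Ctrl at 36.2 to 45.5 CPM. C4b, a complement component, was at 0.158, 0.696 and 0.689 CPM with CK666 and 2.51, 2.11 and 1.88 CPM with CytoD. Of 21 tested interferon response genes 2 and 7 were called (42.9%, near the 39.8% of all genes, median -0.11). In the IGF axis 5 and 5 of 17 were called (58.8%, beside 39.8% of all genes). Igf2 and Igf1 differed in opposite directions: Igf2 was 3.08-fold higher with CytoD and Igf1 2.06-fold higher with CK666. Pappa, the protease that frees IGF from its binding proteins, was 3.41-fold higher with CytoD.

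Genes of cell division were higher with CK666 than with CytoD. Of 23 mitosis genes 20 and 0 were called (median 0.65), and of 24 DNA replication genes 23 and 0 (median 0.72). Mcm5, a subunit of the replicative helicase, was at 40.1, 35.7 and 39.8 CPM with CK666, 22.7, 17.4 and 18.1 CPM with CytoD and 58.3 to 70.2 CPM in Ctrl (log2 0.99, SE 0.11, adjusted p = 2.4e-05). Mcm3 was 2.06-fold higher with CK666, and Ung, which removes uracil from DNA, 2.76-fold, with CK666 libraries at 8.27, 8.12 and 8.64 CPM, CytoD libraries at 3.58, 2.42 and 3.11 CPM and Ctrl at 8.92 to 9.36 CPM. Mki67, the proliferation marker, was at 73.6, 68.6 and 48.9 CPM with CK666, 39.7, 38.2 and 38.9 CPM with CytoD and 70.8 to 106 CPM in Ctrl (log2 0.71, SE 0.15), and CK666 replicate 3 was the lowest of its group. Cdk1, the kinase that starts mitosis, was 1.59-fold higher with CK666, Aurka, a spindle kinase, 1.74-fold and Top2a 1.47-fold.

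Cdc20, which lets sister chromatids part (chromosome 4, 118432901 to 118437343), was at 28.3, 26.2 and 30.1 CPM with CK666, 17.8, 14.1 and 13.7 CPM with CytoD and 31.9 to 43.6 CPM in Ctrl (log2 0.89, SE 0.13, adjusted p = 0.00019). Its promoter is shown as an example of the pair of elements that cell cycle genes share, CCAAT and TTTGAA, in capitals (chr4:118437344-118437436 on the minus strand).
Cdc20: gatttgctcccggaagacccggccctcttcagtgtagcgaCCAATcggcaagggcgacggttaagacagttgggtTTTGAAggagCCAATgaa
Of 23 mitosis genes 20 had a promoter in the table, and 18 of these held CCAAT and 16 held TTTGAA on either strand, against 37.4% and 17.9% of all promoters of that length and 41.1% and 20.2% of genes with any promoter in the table.

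Genes of sterol and glucose metabolism showed the same direction. Of 24 genes of cholesterol synthesis and uptake 21 and 0 were called (median 0.64). Mvd, of the mevalonate pathway, was at 24.6, 32.4 and 40.3 CPM with CK666, 15.9, 12.4 and 13.1 CPM with CytoD and 25.9 to 28.9 CPM in Ctrl (log2 1.24, SE 0.17, adjusted p = 0.00011). Fdps and Dhcr7, later enzymes of the pathway, were 2.12-fold and 2.14-fold higher with CK666. Of 27 glycolysis and hypoxia genes 17 and 3 were called (median 0.49). Gpi1 was at 456, 479 and 567 CPM with CK666, 269.5, 240.4 and 234 CPM with CytoD and 376 to 397 CPM in Ctrl, and Pgk1 was 1.75-fold higher with CK666. Adm, adrenomedullin, a hypoxia target, went the other way, at 7.48, 8.47 and 8.32 CPM with CK666 against 24.6, 26.8 and 27.0 CPM with CytoD. The serine synthesis enzymes Phgdh and Psat1 were 2.60-fold and 2.37-fold higher with CK666, and Trib3, a target of the stress factor ATF4, 1.97-fold higher with CytoD.

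Few genes lay on either side of Ctrl by at least 1.5-fold in every library. Genes with Ctrl between the compounds at smaller gaps, such as Runx2 and Daam2 above, were not counted. In 17 genes every CytoD library was at least 1.5-fold above every Ctrl library and every CK666 library at least 1.5-fold below, and in 1 gene, Ucp2, the reverse held. Ucp2, a mitochondrial carrier, was at 0.867, 1.08 and 1.47 CPM with CK666, 0.247, 0.0336 and 0.108 CPM with CytoD and 0.381 to 0.489 CPM in Ctrl. The 17 included Mmp13, Dkk2 and Itga8, described above. Stc1, the hormone stanniocalcin, was at 3.23, 2.21 and 3.29 CPM with CK666, 28.3, 33.5 and 36.2 CPM with CytoD and 5.67 to 8.39 CPM in Ctrl (log2 -3.49, SE 0.26). Pi15, a secreted protein, was at 3.11, 2.98 and 1.31 CPM, 33.9, 32.9 and 32.1 CPM and 5.18 to 5.62 CPM in the same order. Il20ra, a cytokine receptor chain, was 13.3-fold and Ccbe1, which matures a lymphatic growth factor, 7.86-fold higher with CytoD than with CK666.

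Other genes with large differences missed that limit or lay to one side of Ctrl. Gdpd2, a phosphodiesterase of osteoblast precursors, was at 3.31, 3.02 and 3.79 CPM with CK666, 47.4, 49.8 and 50.04 CPM with CytoD and 5.54 to 8.02 CPM in Ctrl. Ism1, a secreted protein, was 9.64-fold and Tnn, tenascin-N, 7.46-fold higher with CytoD. Phactr1, which binds actin monomers, was at 2.84, 2.05 and 1.22 CPM with CK666, 22.2, 17.8 and 20.1 CPM with CytoD and 14.2 to 16.6 CPM in Ctrl (log2 -3.32, SE 0.24). Arc, an early gene known from neurons, was 5.08-fold higher with CK666, whose libraries (4.81, 12 and 14 CPM) spanned those of Ctrl (6.76 to 13.3 CPM).

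Of 18 p53 targets 1 and 4 were called (27.8%, under the 39.8% of all genes, median -0.15). Cdkn1a, the cell cycle inhibitor, was not called (log2 -0.13, adjusted p = 0.33). Of 16 tested NRF2 antioxidant genes 6 and 1 were called (43.75%, near the 39.8% of all genes, median 0.27). Cat, catalase, was 1.71-fold higher with CK666. Among 21 stress response genes, of the unfolded protein and integrated kinds, 5 and 3 were called (38.1%, near that share as well, median 0.13). Of 25 tested lysosome and autophagy genes 14 and 3 were called (68%), and 10 and 5 without CK666 replicate 3. Sqstm1, an autophagy receptor, was 1.51-fold higher with CK666, and Ctsk, cathepsin K, 2.13-fold higher with CytoD. Of 12 lamina and nuclear envelope linker genes 5 and 1 were called (50%, median 0.18), with Lmnb1 1.51-fold and Lmna 1.5-fold higher with CK666. Of 14 tested tubulins 4 and 4 were called (57.1%, median 0.10), and 2 and 6 without CK666 replicate 3. Tuba4a was 1.72-fold higher with CK666 and Tubb3 3.63-fold higher with CytoD.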

How the data were processed

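RNA of the 12 libraries was sequenced after isolation with a miRNeasy kit, per the labels' protocols. The deposited table held raw read counts and RPKM values made by the authors, and the RPKM values served only for levels compared between genes. CASAVA 1.9, TopHat 12.0.6 and HTSeq are named in the submitters' processing notes, with no settings; the notes also name the human build hg19, while the rows carry mouse symbols and positions. All deposited counts were even, and the fit was repeated on counts divided by 2. The row of ribosomal RNA, Rn45s, held 1.96% to 4.52% of the counts of the 6 libraries and stayed in the table. No count was attached to a row without a gene name.

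Counts were tested with edgeR 4.0.16 (limma 3.58.1, R 4.3.3): filterByExpr with a minimum count of 10 kept 13534 of 23358 rows, libraries were TMM-scaled, and the robust quasi-likelihood test (2-sided, Benjamini-Hochberg over all genes tested) used the 4 group means of all 12 libraries, so that the groups shared an estimate of the spread. DESeq2 1.42.0 and the other alternatives are in the closing section. Promoters and figures were handled with Python 3.11.15 and pandas 2.3.3. The steps were tested on simulated data with known changes.

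A few results are not reported here. Of 872 entries in 45 gene lists, 863 were found, 8 of them under another symbol. The members and lists were chosen with earlier results of these data known. Genes named were the 15 with the largest differences in each direction among called genes at 5 CPM or more without overlap, up to 10 in each direction with Ctrl between the compounds, per list the 4 called members with the largest differences in each direction and the uncalled members with the highest level, the Arp2/3 subunits and a set of widely used marker genes. Outside that rule, and chosen after their values were seen, are Apoe, Atoh8, Axin2, Bglap, Bmp2, Cdk1, Col1a1, Csf1, Dgat2, Dlx5, Fabp5, Fasn, Fn1, Fst, Id4, Itga1, Itgb1, Itgb3, Lef1, Lox, Mcm5, Mki67, Nkd1, Phex, Pnpla2, Pth1r, Sfrp1, Srebf1 and Top2a.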

Additional observations from a re-analysis of the deposited data

How the results depend on the processing

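Of 5388 genes called between the compounds, counts stayed between 4848 and 5834 with other scaling, other filters on low counts, DESeq2, counts divided by 2, Rn45s left out and offsets for gene length; with upper-quartile factors the split was 2535 higher with CK666 and 2562 higher with CytoD, against 3101 and 2287. A fit of only the 6 libraries called 3541 (1820 and 1721). It had fewer samples behind the spread, and the cause of the lower count was not tested. A test against a 1.5-fold change called 694 genes (234 and 460), of which 601 were at least 2-fold different. Leaving out 1 library at a time gave 3911 to 5578 calls and 799 to 1032 genes at 2-fold. 

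The labels do not say what libraries with the same replicate number share. Correlations of their deviations from the group means were 0.083, 0.138 and -0.007, and CytoD replicate 3 correlated best with CK666 replicate 2 (0.043). For Alpl and Sp7, replicate 1 was the lowest library in each of the 4 groups. A shared effect of the replicate number on single genes was not tested beyond the block fits. With the number as a replicate block 5469 genes were called, and 3149 with the block in only the 6 libraries.

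Signs turned for 5 of the genes described, all uncalled in the fit with all libraries. The log2 difference of Arpc2 was -0.0106 with RLE and with upper-quartile factors, -0.0159 with at least 1 CPM in 3 libraries, -0.00894 in DESeq2, -0.00154 in the 6 libraries, -0.00512 with the block there, -0.00584 with counts divided by 2, -0.0962 with length offsets, -0.0756 without CK666 replicate 3 and -0.00365 without CytoD replicate 2. With length offsets Arpc3 was -0.171 (adjusted p = 0.017, higher with CytoD) and Arpc5 -0.0117. Without CK666 replicate 3 Arpc3 was -0.0861, Arpc4 -0.0885, Arpc5 -0.0317 and Cyr61 -0.0279. Leaving out 1 library at a time, the highest values were 0.0861 for Arpc2, 0.146 for Arpc3, 0.223 for Arpc4, 0.137 for Arpc5 and 0.475 for Cyr61. The cause was not tested. Of the other comparisons of a described gene with an alternative, 2976 kept direction and side of the threshold, 110 lost the call and 5 gained it. With 3 libraries a group, a gene left uncalled is not shown to be equal between the compounds.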

Other observations

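The 3 libraries that received both compounds were on neither side of the comparison above, though they entered the shared estimate of the spread, and their values are given without a test. For each gene called at 2-fold between the compounds, each of these libraries was placed nearer to the mean of the CK666 group or of the CytoD group on the log2 scale. Of the 271 genes higher with CK666, 180 (66.4%) had all 3 combination libraries nearer to CK666, 37 had all 3 nearer to CytoD and 54 were split. Of the 642 genes higher with CytoD, 376 (58.6%) had all 3 nearer to CK666, 71 all 3 nearer to CytoD and 195 were split. Which genes had been chosen rests on the compounds' own libraries, so these shares are descriptions.

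Single genes did not all lie between the compounds. Adipoq was at 654, 939.9 and 915 CPM with both compounds, against 445, 601 and 765 CPM with CK666 alone and 146, 154 and 158 CPM with CytoD alone. Scd1 was at 4111, 4816 and 4491 CPM with both, and Col15a1 at 93.3, 99.7 and 97.2 CPM. Mmp13, the collagenase with a 16.5-fold difference, was at 15.1, 11.7 and 14 CPM with both compounds, against 4.29, 4.29 and 4.04 CPM with CK666 alone and 70.4, 68.5 and 69.5 CPM with CytoD alone. Cxcl12 was at 5848, 5707 and 5683 CPM, Sfrp1 at 188, 169 and 167 CPM and Tnfrsf11b at 29.2, 20.6 and 22.2 CPM. Alpl, the phosphatase of mineralizing cells, was at 7.14, 14.1 and 11.9 CPM with both, and Itgad at 25.4, 19.0 and 19.98 CPM.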
